A study of Mus musculus with 4 samples.

Results

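The MYC, MAX and MXD network was followed through its 10 genes Myc, Max, Mxi1, Mxd1, Mxd3, Mxd4, Mnt, Mga, Mlx and Mlxip, chosen by name from 22672 named genes in a table of raw counts. All 10 had reads in every library, and all 10 passed the filter on low counts that left 12758 genes for testing. The RNA came from splenic T cells of the Pmel mouse, whose receptor transgene makes them recognise gp100, an antigen of pigment cells and melanoma. All cultures, whichever their genotype, received 1 µg/ml of the gp100 peptide and 100 U/ml of IL-2, a T cell growth factor, and were harvested at 72 h. 2 libraries were labelled WT control and 2 were labelled SphK1 -/-, that is, without sphingosine kinase 1, which makes the lipid mediator sphingosine-1-phosphate. Strain, age and sex were not given in the labels used here, nor whether libraries of a genotype came from separate mice, so p-values cover the variation among these 4 cultures alone, and that may be technical.

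MYC is a transcription factor that T cells switch on after antigen contact and that drives their growth, metabolism and division. It binds DNA mainly as a pair with MAX, at a short sequence called the E-box. The MXD proteins (encoded by Mxd1, Mxd3, Mxd4 and Mxi1) and MNT also pair with MAX and bind E-boxes, but recruit SIN3 and histone deacetylases and repress. MGA pairs with MAX within a Polycomb complex that silences genes of the germline. MLX pairs with MLXIP, also called MondoA, a sensor of sugar phosphates whose best known target is Txnip.

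Counts in named genes came to 43642723 for control 1, 45760330 for control 2, 50406140 for SphK1 -/- 1 and 53500852 for SphK1 -/- 2. Sphk1 itself ran against the labels, with 2 and 4 counts in the controls and 35 and 18 in the libraries labelled SphK1 -/-, so directions refer to labels only. In edgeR its log2 fold change of SphK1 -/- over control was 3.12 ± 0.66 (SE; adjusted p = 0.0233). All 4 library values are low, at most 0.74 CPM, and do not settle whether the labels are right. The 8 cytotoxic T cell markers measured (Cd3e, Cd3d, Cd3g, Cd247, Cd8a, Cd8b1, Thy1 and Lck) summed to 4316 CPM in the lowest and 4847 CPM in the highest library. CPM are counts relative to library size, here after TMM normalisation in edgeR. The 8 B cell markers summed to 188.2, 202.0 and 195.7 CPM in control 1, control 2 and SphK1 -/- 2, against 406.0 CPM in SphK1 -/- 1. All 8 had a positive log2 fold change of SphK1 -/- over control, and 2 were higher without overlap, beside 21% of all tested genes. These were Cd79a (21.8 and 22.6 against 86.1 and 37.9 CPM) and Ebf1 (2.5 and 3.4 against 12.7 and 6.7 CPM). In edgeR their adjusted p was 0.0236 and 0.013. The 7 macrophage markers summed to 11.2 and 14.5 CPM in the controls and to 29.9 and 18.3 CPM in SphK1 -/- 1 and 2. Much of this was Cd68 (7.26 and 9.47 against 22.2 and 13.2 CPM), while Csf1r was level (0.36 and 0.34 against 0.36 and 0.37 CPM). Of the 5 tested, 3 were higher without overlap, beside 21% of all tested genes, and Cd68 had an adjusted p of 0.0478 in edgeR. The 8 natural killer markers, of which Klra4 and Klra8 were at 0 throughout, summed to 53.7 and 39.7 CPM against 97.6 and 65.4 CPM. Most of each sum was Eomes, whose groups overlapped (40.6 and 26.2 against 57.9 and 36.2 CPM). Of the 6 tested, 5 were higher without overlap, beside 21% of all tested genes. Among them were Klra7 (3.4 and 4.2 against 15 and 12 CPM) and Klre1 (2.4 and 2.1 against 9.9 and 7.2 CPM). In edgeR their adjusted p was 0.00094 and 0.00133. Such sums do not by themselves give the share of a cell type. In bulk RNA, fewer cells of a type and less RNA per cell cannot be told apart.

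The network genes lie on 8 chromosomes (GRCm38, GENCODE M21), and some hold an E-box close to their own start. The motif CACGTG, which reads the same on both strands, was searched in RefSeq windows (GRCm38.p6) from 250 bases before to 50 bases after each annotated start. It occurred for 4 of the 9 network genes with such a window, compared with 8.09% of all 27025 genes and 11.6% of the 9675 tested genes that had one. The 4 stretches are shown 5′ to 3′ on the gene's strand because the network's own proteins bind this sequence, which is in capitals. In Max (chr12:76962239-76962278, minus strand) the E-box begins 3 bases before the start, in Mlx (chr11:101087223-101087282, plus) 40, in Mnt (chr11:74830774-74830833, plus) 123 and in Mxd4 (chr5:34187897-34187956, minus) 219 bases before it.
Max: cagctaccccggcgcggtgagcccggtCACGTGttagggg
Mlx: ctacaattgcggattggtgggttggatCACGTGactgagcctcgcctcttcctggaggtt
Mnt: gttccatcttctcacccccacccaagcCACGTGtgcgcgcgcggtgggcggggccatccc
Mxd4: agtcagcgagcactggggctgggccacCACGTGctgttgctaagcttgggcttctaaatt
The windows of Mxi1, Mxd1, Mxd3, Mga and Mlxip held no CACGTG, which says only that these letters are absent there.

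None of the 10 network genes passed the threshold between genotypes (edgeR quasi-likelihood test, Benjamini-Hochberg adjusted p under 0.05). Of the 12758 tested genes 6.75% did, and with only 10 genes a count of 0 is near that share. Among tested genes with at most 5% of their 30-base words in another gene and at most 10% exonic overlap, 1.94% did. That class holds 9 of the 10. DESeq2 and limma-voom also called 0 of the 10, and at an unadjusted p under 0.05 each of the 3 tools found 1, Mxi1, where edgeR found 14.9% of all genes. Log2 fold changes of SphK1 -/- over control ran from −0.52 to 0.38 with a median of −0.10, beside −0.021 over all tested genes, and 7 were negative and 3 positive. In 4 genes both libraries labelled SphK1 -/- lay below both controls, and in 2 they lay above. Over all tested genes 23.8% were apart in the first way and 21% in the second, so such separation was common in these libraries. Intervals given below are 95% intervals of the log2 fold change for each gene alone.

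**Figure D1:**
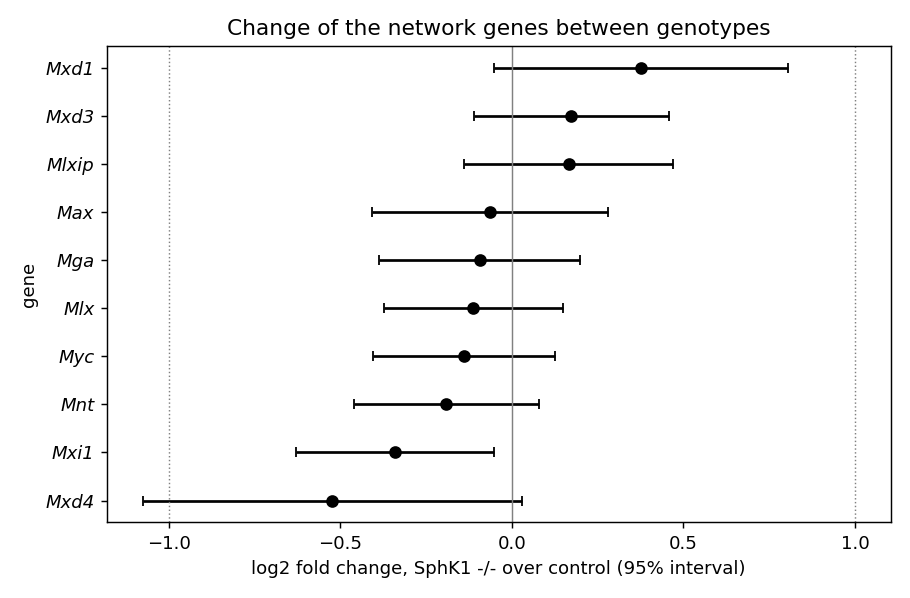
Log2 fold change (x axis) of each network gene (y axis), SphK1 -/- over control, 2 libraries a group; bars are 95% intervals of each gene alone and dotted lines mark changes of 1 in either direction. Only the interval of Mxi1 leaves out 0, and only that of Mxd4 passes −1.

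Myc, the activator (chromosome 15, 61985391 to 61990374), was by far the most abundant of the 10. Its level was 352.3 and 381.7 CPM in control 1 and 2 and 342.0 and 324.7 CPM in SphK1 -/- 1 and 2. Both libraries labelled SphK1 -/- were below both controls, but SphK1 -/- 1 was nearer to control 1 than the controls were to each other. Means were 367.0 ± 20.8 CPM and 333.3 ± 12.2 CPM (SD, n = 2 each), a log2 fold change of −0.14 ± 0.12 (SE; adjusted p = 0.659, edgeR). The interval from −0.40 to 0.13 bounds the difference and does not show that the genotypes are alike. Pvt1, the long non-coding transcript next to Myc, stood at 19.3 and 26.8 CPM in the controls and at 25.7 and 24.4 CPM in the libraries labelled SphK1 -/- (adjusted p = 0.824, edgeR). It is named for its position.

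Max, the shared partner (chromosome 12, 76937269 to 76962201), was at 91.8 and 68.8 CPM in the controls and 72.8 and 80.9 CPM in the libraries labelled SphK1 -/-. The controls were further apart than the group means of 80.3 ± 16.3 CPM and 76.9 ± 5.73 CPM (SD, n = 2 each), and the groups overlapped. Its log2 fold change of −0.063 ± 0.15 (SE; adjusted p = 0.896, edgeR) became 0.19 without control 1 and −0.25 without control 2.

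Among the MXD repressors, Mxi1 (chromosome 19, 53310518 to 53375810), which encodes MXI1, was at 146.9 and 120.6 CPM in the controls and 102.6 and 108.5 CPM in the libraries labelled SphK1 -/-. The groups did not overlap, and control 1 was the highest library. In edgeR the estimate was −0.34 ± 0.13 on the log2 scale (SE; interval −0.63 to −0.052; adjusted p = 0.226), and it was the gene with an unadjusted p under 0.05. It shrank to −0.16 without control 1 and was −0.47 without control 2 (adjusted p = 0.806 and 0.0587).

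Mxd1, induced in many cells as they differentiate (chromosome 6, 86647042 to 86669161), had the largest positive change of the network. Control 1 and 2 held 23.8 and 23.9 CPM, SphK1 -/- 1 held 36.9 and SphK1 -/- 2 held 25.0 CPM, so that the difference sat almost wholly in SphK1 -/- 1. The log2 fold change of 0.38 ± 0.19 (SE; adjusted p = 0.420, edgeR) was 0.068 without that library and 0.63 without SphK1 -/- 2. SphK1 -/- 1 is also the library with the highest B cell, macrophage and natural killer marker sums given above, and their part in the result was not tested.

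Mxd3, an MXD protein of dividing cells (chromosome 13, 55325168 to 55329823), was at 31.6 and 34.2 CPM in the controls and 38.5 and 35.7 CPM in the libraries labelled SphK1 -/-. The groups did not overlap, with a log2 fold change of 0.17 ± 0.12 (SE; adjusted p = 0.609, edgeR). It shares 105 exonic bases with Prelid1 on the opposite strand, and Prelid1 rose by 0.67 (adjusted p = 0.0123, edgeR). No source used here gives the strand setting of the counting, and the part of these bases was not tested.

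Mxd4, the least abundant member (chromosome 5, 34173883 to 34187720), had the largest negative change and the widest interval. Its level was 7.26 and 10.3 CPM in the controls and 6.83 and 5.40 CPM in the libraries labelled SphK1 -/-, from 262 to 517 counts. Control 2 was the highest and the groups did not overlap. The log2 fold change of −0.52 ± 0.24 (SE; interval −1.08 to 0.029; adjusted p = 0.373, edgeR) was −0.24 without control 2 and −0.72 without control 1.

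The MXD transcripts gave similar sums in all 4 libraries, while their make-up differed between libraries. Per kilobase of exon, Mxi1, Mxd1, Mxd3 and Mxd4 added up to 39.1 and 36.7 CPM per kilobase in the controls and 37.3 and 35.1 in the libraries labelled SphK1 -/-. Mxi1 made up 55.1% and 48.2% of this sum in the controls and 40.3% and 45.3% in SphK1 -/- 1 and 2. Mxd3 made up 34.1% and 39.4%, against 43.5% and 42.9%, so it passed Mxi1 in SphK1 -/- 1 alone. Myc exceeded the MXD sum per kilobase 3.32 and 3.83 times in the controls and 3.37 and 3.40 times in the libraries labelled SphK1 -/-, values that overlap. These sums assume that all annotated exons are used, and no test was run on them.

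**Figure D2:**
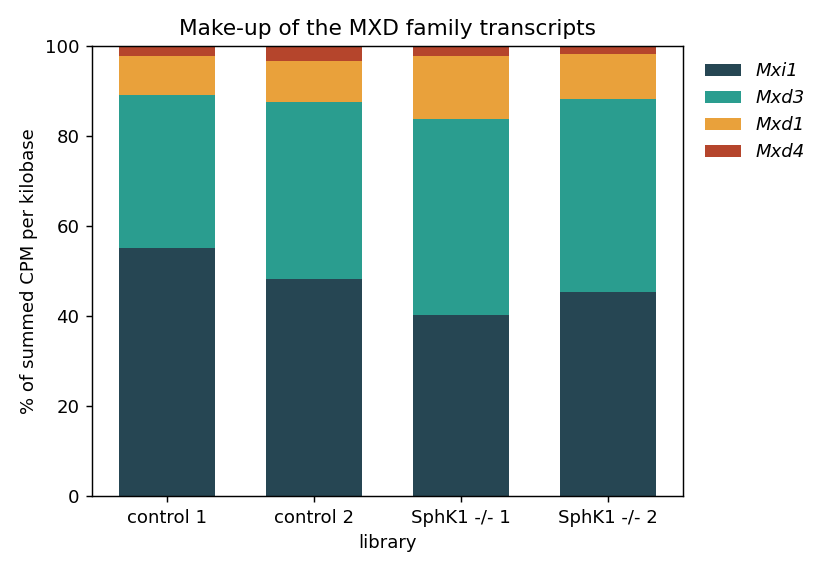
Share of each MXD gene (stacked bars, in % of the summed CPM per kilobase of exon) in each of the 4 libraries. Mxi1 takes 55.1% and 48.2% in the controls and 40.3% and 45.3% in the libraries labelled SphK1 -/-.

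Mnt, the broadly expressed antagonist of MYC (chromosome 11, 74830920 to 74845725), was at 47.5 and 47.0 CPM in the controls and 43.8 and 39.0 CPM in the libraries labelled SphK1 -/-. The groups were apart, and the log2 fold change was −0.19 ± 0.12 (SE; interval −0.46 to 0.079; adjusted p = 0.536, edgeR). Mga (chromosome 2, 119897228 to 119969581) held 103.8 and 126.6 CPM in the controls and 103.7 and 112.1 CPM in the libraries labelled SphK1 -/-. Its groups overlapped, and its change of −0.094 ± 0.13 (adjusted p = 0.804, edgeR) turned to 0.062 without control 2.

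On the sugar-sensing arm, Mlx (chromosome 11, 101087277 to 101092207) was at 60.0 and 57.1 CPM in the controls and 51.2 and 57.1 CPM in the libraries labelled SphK1 -/-. The groups overlapped, since control 2 and SphK1 -/- 2 were level, at a log2 fold change of −0.11 ± 0.11 (SE; adjusted p = 0.731, edgeR). Psmc3ip, which covers 385 of its exonic bases on the opposite strand, was at 0.047 (adjusted p = 0.925, edgeR). Mlxip (chromosome 5, 123394798 to 123457932) was at 119.8 and 141.5 CPM in the controls and 158.8 and 134.3 CPM in the libraries labelled SphK1 -/-, again with overlap (0.17 ± 0.13; adjusted p = 0.648, edgeR). Txnip, their target, was at 372.7 and 465.5 CPM in the controls. Under the SphK1 -/- label it went beyond the controls at both ends, with 528.1 CPM in SphK1 -/- 1 and 356.8 CPM in SphK1 -/- 2 (log2 fold change 0.078, adjusted p = 0.901, edgeR). None of the 5 genes listed as MLXIP and MLX targets passed the threshold in edgeR, DESeq2 or limma-voom, and 0 had an unadjusted p under 0.05 in edgeR. Over all tested genes 6.75% passed in edgeR and 14.9% had such an unadjusted p. With only 5 genes, counts of 0 are near these shares. Hk2 and Pfkfb3, enzymes that raise the flux through glycolysis, had log2 fold changes of −0.17 and −0.0011.

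Set on a scale per kilobase of exon, the network genes covered more than 2 orders of magnitude in these activated T cells. Myc averaged 128.9 CPM per kilobase over the 4 libraries, higher than 97.5% of the 12677 tested genes with a known length. It lay 4.57 times above the next gene, Mlx, at 28.2. Max (21.8), Mxi1 (17.5), Mlxip (16.7) and Mxd3 (14.8) followed, and the ranges of neighbours in this stretch overlapped over libraries. Mnt (9.58), Mga (7.27), Mxd1 (3.88) and Mxd4 (0.878 CPM per kilobase) came last, each with a range of its own, and Mxd4 was higher than 20.6% of tested genes. With the longest transcript as length Max moved to 40.5 and above Mlx at 28.7, and Mxd3 above Mlxip, while the first and the last 4 places stayed. Of the 2 further family genes measured, Mycn, a MYC paralog, was at 6.83 and 2.71 CPM in the controls and 5.83 and 3.97 CPM in the libraries labelled SphK1 -/-. Mlxipl, the MLXIP paralog of liver, held between 6 and 22 counts (log2 fold change −1.26 ± 0.54, adjusted p = 0.320, edgeR).

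**Figure D3:**
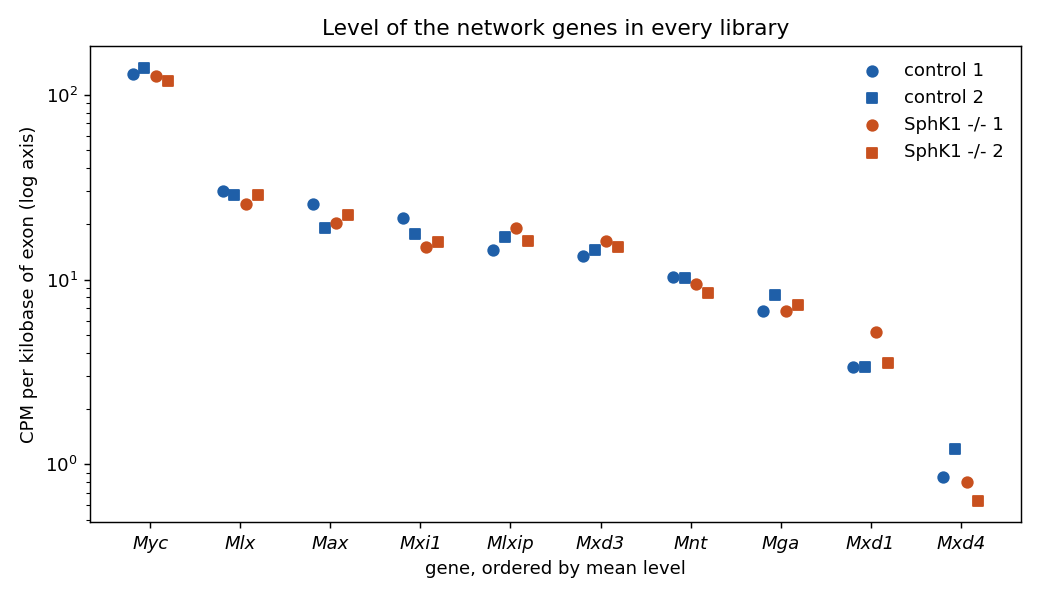
Level of each network gene (x axis, ordered by mean) in CPM per kilobase of exon on a log axis, 1 point a library. Myc lies between 119.5 and 140.5, above all points of the other genes, and Mxd4 lies between 0.636 and 1.22.

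Scaling set the sign of small changes. TMM left the median log2 fold change of all tested genes at −0.021, while library totals alone moved it to −0.26. With totals alone 9 of the 10 network genes were negative, and Mxi1 (−0.58, adjusted p = 0.0235) and Mnt (−0.43, 0.0479) passed the threshold, in a fit that called 16.3% of all genes. Measured from the median of all genes, the values under both scalings were −0.32 for Mxi1, −0.17 for Mnt and −0.12 for Myc. Mxd3 and Mlxip were positive with TMM and negative with totals alone (−0.067 and −0.073).

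Cofactors and known targets were read next, from lists chosen by function. Of 150 listed genes tested, 18 rose and 0 fell in edgeR, or 12%, beside 6% of all tested genes that rose and 0.752% that fell. At an unadjusted p under 0.05 in edgeR, 21 were higher and 13 lower, where 14.9% of all tested genes passed in either direction. At the adjusted threshold DESeq2 called 18 higher and 2 lower, and limma-voom 18 higher and 0 lower. The risers stood apart in sequence. A total of 17 of the 18 shared over 10% of their 30-base words with another annotated gene, as did 26 of the 150, and 42.9% of all 1247 tested genes of this kind were called. The 10 network genes shared at most 1.53%. A gene with near-identical copies is uncertain here, since no source used here says how reads that fit several places were treated. Within the 107 listed genes that share no more than 5% of their words and have no more than 10% of their exons under another gene, 1 was called, against 1.94% of all genes of this class.

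**Figure D4:**
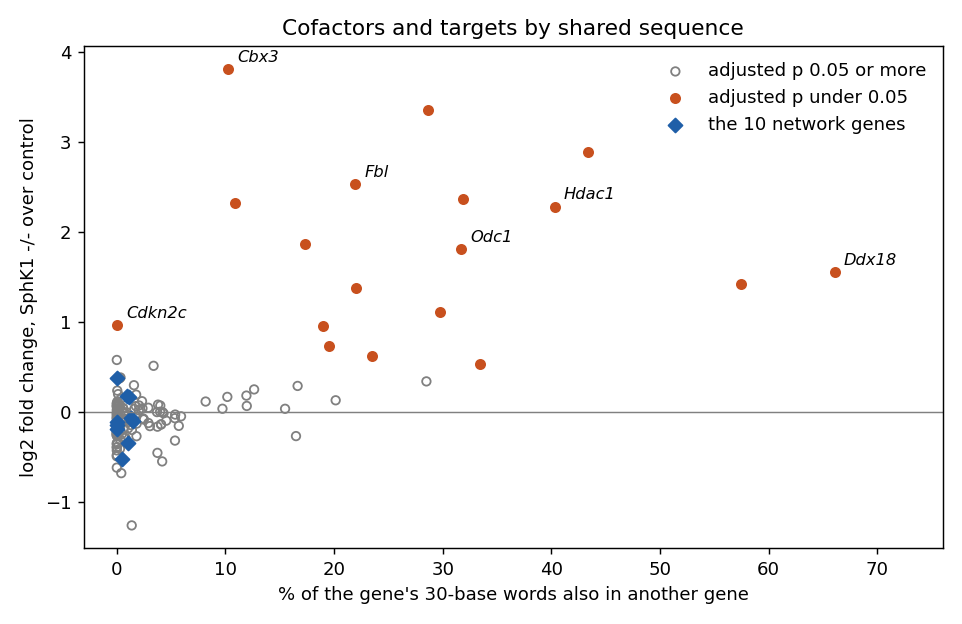
Log2 fold change (y axis, SphK1 -/- over control) of listed cofactors and targets against the share of their 30-base words that occurs in another annotated gene (x axis, %); filled circles passed the threshold and diamonds are the 10 network genes. Cdkn2c is the called gene at 0% shared words, and the other 17 lie above 10%.

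That gene was Cdkn2c, an inhibitor of the kinases CDK4 and CDK6 and listed among genes that MYC represses. It was at 20.8 and 23.7 CPM in the controls and at 40.3 and 46.9 CPM in the libraries labelled SphK1 -/-, with both of the latter far above both controls. The log2 fold change was 0.97 ± 0.14 (SE; adjusted p = 0.00262, edgeR), and it held its call in all 12 alternatives, including the fit on genes with little shared sequence (adjusted p = 0.02). Leaving out SphK1 -/- 1 gave 1.07 and leaving out SphK1 -/- 2 gave 0.85. Natural killer and macrophage marker sums, and the B cell markers Cd79a and Ebf1, were also higher in both libraries labelled SphK1 -/-, as given above. The part of these markers in the result was not tested. The other 6 genes of that list did not pass the threshold, and the list's median was −0.26. At an unadjusted p under 0.05 in edgeR, 5 of the 7 passed, where 14.9% of all tested genes did. They went in both directions, Cdkn2c and Cdkn1a higher and the rest lower. Cdkn1a, another kinase inhibitor, was at 226.0 and 317.8 CPM against 437.1 and 338.8 CPM (log2 fold change 0.51; adjusted p = 0.215), and Ndrg1, a stress gene, was at 286.9 and 179.3 CPM against 166.4 and 124.8 CPM (−0.68; adjusted p = 0.153, edgeR). Ndrg2 had a log2 change of −0.41 (adjusted p = 0.174, edgeR). Without control 2, Cdkn1a, Ndrg1 and Ndrg2 were called (adjusted p = 0.038, 0.0134 and 0.0274, edgeR). Ndrg1 was also called without SphK1 -/- 1 (0.0233) and with DESeq2 (0.0342), and Ndrg1 and Ndrg2 with library totals alone (0.0416 and 0.0234).

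In the ribosome biogenesis list 6 of 31 targets rose and 0 fell, with a median of 0.041, where 6% of all tested genes rose. Npm1, the nucleolar protein nucleophosmin, rose by 1.11 on the log2 scale (adjusted p = 0.00198), Fbl, the rRNA methyltransferase fibrillarin, by 2.53 (2.72e-06) and Ddx18, a helicase, by 1.55 (6.97e-05, edgeR). Nop56, Mrto4 and Pes1, which act in ribosome assembly, also rose (0.96, 0.74 and 0.54). These 6 share between 19% and 66.1% of their words. Ncl, nucleolin, with 5.36% shared words, was at 2366 and 1929 CPM in the controls and 1564 and 1883 CPM in the libraries labelled SphK1 -/- (log2 fold change −0.32; adjusted p = 0.445, edgeR), and Mybbp1a, a nucleolar protein, had a log2 change of −0.069. Of the 20 genes in this list with little shared sequence 0 were called in their own edgeR fit, in which 0.77% of 9092 genes were. None of the 20 had an unadjusted p under 0.05 there, and their median was 0.021. Pes1 and Mrto4 each lost their call with library totals alone (log2 fold change 0.30 and 0.50, adjusted p = 0.0806 and 0.0515, edgeR). Both also lost it without SphK1 -/- 2 (log2 fold change 0.44 and 0.61). The same held for Pes1 without control 1 (0.53) and for Mrto4 without control 2 (0.57).

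Metabolic targets gave 4 rises and no fall among 25 genes, with a median of −0.11, where 6% of all tested genes rose. Odc1, the enzyme of polyamine synthesis and a classical MYC target, went from 235.1 and 194.2 CPM to 718.9 and 786.7 CPM (log2 fold change 1.81, adjusted p = 3.81e-05, edgeR). By log2 fold change, Eno1 (3.36) and Pkm (0.62), enzymes of glycolysis, and Impdh2 (2.88), of guanine nucleotide synthesis, rose too, and all 4 share between 23.5% and 43.4% of their words. In the main edgeR fit 9 of the 25 had an unadjusted p under 0.05, where 14.9% of all tested genes did. These were the 4 risers and others that were lower. Of the 17 genes in this list with little shared sequence 0 were called in their own edgeR fit and 2 had an unadjusted p under 0.05 there. In that fit 15 of the 17 had a negative log2 change, beside 4584 of all 9092 genes. Their median was −0.21, beside −0.0020 over all genes of the fit, and the list as a set was not tested. Slc3a2, a chain of amino acid transporters named after its values were seen, was called lower with DESeq2 (adjusted p = 0.0196) but not in the main edgeR test or limma-voom. Ldha, lactate dehydrogenase, had a log2 change of 0.13 (adjusted p = 0.815). Pkm lost its call with library totals alone (log2 fold change 0.38) and without control 2, SphK1 -/- 1 or SphK1 -/- 2. Among cell cycle targets 1 of 13 rose, Cks2 (log2 fold change 2.36, with 31.8% shared words), a partner of cyclin-dependent kinases. Cdk4 (−0.16), the kinase that cyclin D activates, and Mcm4 (−0.15) and Mcm5 (−0.27), of the replicative helicase, did not pass the threshold. E-boxes occurred in the start windows of 15 of 57 ribosome, metabolic and cell cycle targets (26.3%), against 11.6% of tested genes.

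Of the proteins that act with the network, 3 of 11 genes of the MGA complex rose: Cbx3 (log2 fold change 3.81, adjusted p = 2.39e-07), a reader of silenced chromatin, Rybp (2.33, 8.01e-06), a Polycomb subunit, and Tfdp1 (1.38, 0.000119, edgeR), the partner of E2F6. Wdr5, a scaffold shared with MYC itself, had a log2 change of −0.071. In the SIN3 and deacetylase list 1 of 19 rose, Hdac1, with means of 54.9 ± 5.53 CPM in the controls and 266.7 ± 3.69 CPM under the SphK1 -/- label (SD, n = 2 each), a change of 2.28 (adjusted p = 3.05e-06, edgeR), while Rbbp4 and Rbbp7, histone chaperones of that complex, had log2 changes of −0.048 and 0.18. Among coactivators 1 of 14 rose, the helicase Ruvbl1 (1.42, 0.000222), while its partner Ruvbl2 (−0.13) and Hcfc1 (−0.067), a MYC cofactor, did not pass the threshold. Hnrnpk (1.87, 2.78e-05), which binds the Myc promoter, was the only riser of 8 genes at the Myc locus or known to act on Myc, where Ctcf, the insulator protein, was at −0.16 on the log2 scale. The 6 risers named here share between 10.2% and 57.5% of their words. Of all tested genes 6% rose, and of those with over 10% shared words 42.9% were called, so these counts are not read as a change of the complexes. None of 16 genes that set the stability of MYC protein passed the threshold in edgeR, DESeq2 or limma-voom, beside 6.75% of all tested genes in edgeR. An unadjusted p under 0.05 in edgeR was found for 2 of the 16, beside 14.9% of all tested genes. The median of the 16 was −0.036, with Aurka (−0.17), Plk1 (0.036) and Fbxl14 (0.067) as the most abundant per kilobase of exon.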

How the data were processed

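Per the labels, TruSeq mRNA libraries were made from RNA of 4 cultures. The authors deposited raw read counts per gene, whole numbers in 4 columns of which 0 were left unused. Build GRCm38 and the tools TopHat2 2.0.13, cutadapt 1.11, DESeq2 1.14.1 and HTSeq 0.6.1p1 appear, without roles, in the submitters' processing notes. Annotation and strand setting are not given in the sources used here. Of 23419 entries, 720 without a name (1.13% and 1.17% of control counts, no value under the SphK1 -/- label) and 27 with a date as name (0.261% to 0.312% of counts) were left out.

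Counts were tested with edgeR 4.0.16 in R 4.3.3 (quasi-likelihood F test, TMM, filterByExpr at 10 counts, p-values adjusted by Benjamini-Hochberg over 12758 genes, threshold 0.05). The SE is the absolute log2 fold change over the square root of F. 3 counts equal 0.0598 to 0.0639 CPM. Alternatives were DESeq2 1.42.0, limma 3.58.1 (voom), other scalings, no filter, robust fitting, each library left out, a replicate block and a fit on genes with at most 5% shared 30-base words and at most 10% exonic overlap. Exonic length, overlap and shared words came from GENCODE M21. Named were all 10 genes and, per list, genes past the threshold (at most 6) and the 3 highest per kilobase, of which 1 gene is not reported here. Members and lists were chosen with earlier results of these data known. Libraries of a genotype differed by more than sampling noise (chi-square per gene of 47.6 and 31.3).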

Additional observations from a re-analysis of the deposited data

How the results depend on the processing

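The count of called network genes stayed at 0 under 11 of 12 alternatives; library totals alone gave 2, both lower. Over all genes 861 passed the threshold (765 higher, 96 lower). Totals alone gave 2084, of which 1432 were lower, and the fit on genes with little shared sequence gave 70, with 61 higher and 9 lower. Leaving out a library in turn gave 732 to 1055 calls, 645 to 825 higher and 87 to 230 lower, the 230 without control 2. With the replicate block 178 were lower, and no network gene was called. Same-numbered libraries deviated with a correlation of −0.057. With 2 libraries a group this is a single value, which cannot show whether the numbers pair them. Signs of Max (without control 1 and without SphK1 -/- 1), Mga (without control 2), Mxd3 and Mlxip (totals alone) changed. The block also called Cdkn1a and Ndrg1 (adjusted p = 0.0377 and 0.000875) and changed no call of another gene refitted under every alternative. The lowest count of a network gene in a library was 262, in Mxd4, which had the widest interval.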
